A study of Homo sapiens with 5 samples.

Results

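The genes described here encode the nuclear pore complex, the channel through which proteins and RNA pass between nucleus and cytoplasm. They are the rows of the count table whose symbol begins with NUP and a digit, together with TPR, RANBP2, POM121, POM121C, AAAS, NDC1, SEH1L, RAE1, AHCTF1 and SEC13. The rule finds 33 of the 25382 genes, and 31 of them had enough reads to be tested among 13297 genes. RNA-seq libraries of 50-base single reads were made from 3 samples of weakly adherent MDA-MB231 cells, dated 6, 12 and 15 March, and from 2 samples of strongly adherent cells, dated 6 and 15 March. MDA-MB231 is an established human breast cancer line without hormone receptors or HER2 amplification and with mesenchymal traits, and shear stress applied to a mixed population separated the groups, so a response to the shear and adhesion strength cannot be told apart. Values per library are given in date order. All samples came from the same line, grown in DMEM with fetal bovine serum and an antibiotic and antimycotic mix, and no other treatment is named. The libraries held 19630386 to 21707459 reads assigned to genes. The labels do not say whether samples came from separate cultures, so the spread behind each p-value may be technical. It comes from these libraries, and the tests draw each gene's spread toward that of other genes.

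Most line markers were as the label gives. VIM lay at 2458 to 2746 CPM (counts scaled to library size by TMM, the trimmed mean of M-values) and CD44 at 1471 to 1696 CPM, AXL, ZEB1 and MSN were also present, and ESR1 and PGR had 0 reads in every library. KRT5 had at most 3 reads, CDH1 lay at 1.18 to 2.07 CPM, and EPCAM, listed as low or absent, lay at 19.4 to 25.8 CPM. Of the markers of other cells, the leukocyte gene PTPRC had 1 to 5 reads per library, the endothelial gene PECAM1 had 15 to 33, and the collagen genes COL1A1 and COL1A2 lay at 3.85 to 13.0 CPM.

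A pore is built from a scaffold of outer and inner rings, anchored in the fused nuclear membranes by transmembrane proteins. Proteins rich in phenylalanine-glycine (FG) repeats fill the channel and bind transport receptors. Filaments with the giant protein RANBP2 extend into the cytoplasm, and a basket built on TPR extends into the nucleus. By position, the members comprised 9 genes of the outer ring and its chromatin tether, 5 of the inner ring, 4 of the membrane anchor, 3 of the central channel, 5 of the cytoplasmic face and 3 of the nuclear basket. The other 4 rows have no position here: the paralogs NUP62CL and NUP210L, the pseudogene NUP210P1 and the antisense RNA NUP50-AS1. NUP210L had 1 read in all libraries together and NUP210P1 had 0, and neither was tested. NUPL1 and NUPL2, which RefSeq lists as older symbols of the pore genes NUP58 and NUP42, fall outside the rule. Their log2 fold changes (log2FC), weakly over strongly adherent, were 0.07 (SE 0.08) and 0.03 (SE 0.10).

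The FG repeats can be seen in the coding sequences. Counting in-frame pairs of codons spelling TTTGGN or TTCGGN in the longest GENCODE coding sequence, 6 members had at least 20: NUP214 with 44, NUP98 with 41, NUP153 with 29, POM121 and POM121C with 24 each, and RANBP2 with 22. Only 8 of 12228 tested genes with a counted coding sequence reached 20, the other two being GPR98 and AHNAK2. The densest stretch of 90 bases is shown, with the pairs in capitals, for 3 of these 6 genes. In these 3 every weakly adherent library lay above both strongly adherent ones, against 15.5% of all tested genes. All 3 have a coding sequence of at least 5 kb, a class in which 339 of 569 tested genes lay apart and higher. In NUP153, POM121 and POM121C, under 5 kb, the groups overlapped. NUP62, with 6 such pairs, also had groups that did not overlap, and was lower, against 14.5% of all tested genes.
RANBP2, coding bases 8503 to 8592: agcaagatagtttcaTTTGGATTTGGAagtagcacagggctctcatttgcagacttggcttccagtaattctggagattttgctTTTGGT
NUP214, coding bases 5896 to 5985: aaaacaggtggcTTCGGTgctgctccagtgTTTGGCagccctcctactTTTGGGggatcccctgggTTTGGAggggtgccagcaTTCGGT
NUP98, coding bases 1 to 90: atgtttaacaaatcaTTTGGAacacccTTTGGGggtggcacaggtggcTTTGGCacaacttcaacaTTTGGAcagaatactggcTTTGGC

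The promoters of the pair of members that passed the main test, RANBP2 and TPR, and of NUP210, which had the most negative log2FC, are given from RefSeq on GRCh38.p14, from 250 bases before to 50 after the gene's start. Capitals mark matches, on either strand, to the CCAAT box (letters CCAAT), to the cell cycle genes homology region (letters TTTGAA), to the GC box (letters GGGCGG), to the NRF1 motif, or to an E2F-type motif (letters TTTCGCGC, or else letters TTTGGCGC).
RANBP2, chr2:108719232-108719531, plus strand: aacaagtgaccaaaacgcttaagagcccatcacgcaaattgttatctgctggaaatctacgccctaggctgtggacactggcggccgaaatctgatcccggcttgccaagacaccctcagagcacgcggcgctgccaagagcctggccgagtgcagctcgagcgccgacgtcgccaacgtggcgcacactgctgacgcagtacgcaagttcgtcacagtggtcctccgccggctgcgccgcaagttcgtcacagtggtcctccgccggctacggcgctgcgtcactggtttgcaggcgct
TPR, chr1:186375204-186375503, minus strand: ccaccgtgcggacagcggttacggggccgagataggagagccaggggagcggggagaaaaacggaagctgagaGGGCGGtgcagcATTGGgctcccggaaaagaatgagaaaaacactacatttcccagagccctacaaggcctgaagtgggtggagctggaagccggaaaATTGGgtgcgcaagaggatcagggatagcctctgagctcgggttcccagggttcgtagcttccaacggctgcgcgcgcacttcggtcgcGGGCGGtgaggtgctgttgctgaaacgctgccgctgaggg
NUP210, chr3:13420273-13420572, minus strand: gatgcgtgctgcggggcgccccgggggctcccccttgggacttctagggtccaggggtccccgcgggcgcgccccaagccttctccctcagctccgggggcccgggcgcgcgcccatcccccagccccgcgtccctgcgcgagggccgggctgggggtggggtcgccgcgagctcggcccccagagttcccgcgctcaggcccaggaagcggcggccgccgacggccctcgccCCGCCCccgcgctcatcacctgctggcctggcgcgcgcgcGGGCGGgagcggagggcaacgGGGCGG

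The TPR window held 2 CCAAT boxes and 2 GC boxes, that of NUP210 held 3 GC boxes, and that of RANBP2 held none of these letters. RefSeq promoters were found for 29 members. The CCAAT box occurred in 12 of them (41.4%), against 36.5% of the 9725 tested genes with a promoter, and TTTGAA in 6 (20.7%), against 9.55%. The GC box occurred in 13 (44.8%), against 70.4%, the NRF1 motif in 3 (10.3%), against 2.29%, and the E2F-type motifs in 1 (3.45%), against 2.04%. These are descriptions of letters in a window, not of bound sites.

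RNA of RANBP2 and TPR, the 2 longest pore genes, was higher in weakly adherent cells, while no scaffold gene passed the test. Calls rest on edgeR's quasi-likelihood test, adjusted over all tested genes by Benjamini-Hochberg (BH) and read at 0.05. RANBP2 and TPR rose, 2 of 31 tested members, against 1.77% of all tested genes called higher. None fell, against 0.918% of all tested genes called lower. DESeq2 also called 2 members higher and 0 lower, against 2.27% and 1.05% of all tested genes, and so did limma-voom, against 1.67% and 0.842%. At an unadjusted edgeR p under 0.05 there were 5 higher and 2 lower, against 7.86% and 6.35%. The median log2FC of the members was 0.04, against -0.00054 over all tested genes, and 21 of 31 were positive. That median was 0.0035 without the weakly adherent library of 6 March, 0.083 without that of 15 March, 0.074 when the strongly adherent one of 6 March was left out, 0.025 when that of 15 March was, and 0.0055 with each library's trend with coding length removed. In 6 members every weakly adherent library lay above both strongly adherent ones, against 15.5% of all tested genes, and in 4 every weakly adherent library lay below, against 14.5%. All members together held 0.381% ± 0.0143 of gene counts in weakly adherent cells (SD, n = 3) and 0.360% ± 0.00336 in strongly adherent cells (SD, n = 2). The weakly adherent libraries, at 0.395% on 6 March, 0.383% on 12 March and 0.366% on 15 March, all lay above the strongly adherent ones, at 0.362% on 6 March and 0.357% on 15 March. Without RANBP2, POM121 and POM121C the groups overlapped, since the weakly adherent library of 15 March (0.3392%) then lay below the strongly adherent one of 6 March (0.3399%).

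With the shared date as a block, a fit with 1 residual degree of freedom, 5 members rose and 2 fell. Against these stand 6.2% of all tested genes called higher and 5.28% called lower in that fit. The 5 that rose with the block were RANBP2, TPR, NUP98, AHCTF1 and NUP214, and the 2 that fell were NUP210 and NUP62. No strongly adherent library shares the date of 12 March. The weakly adherent library of that date therefore adds nothing to the group difference in the fit with the block. Each log2FC and call with the block thus rests on the 2 pairs of libraries that share a date.

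**Figure D1:**
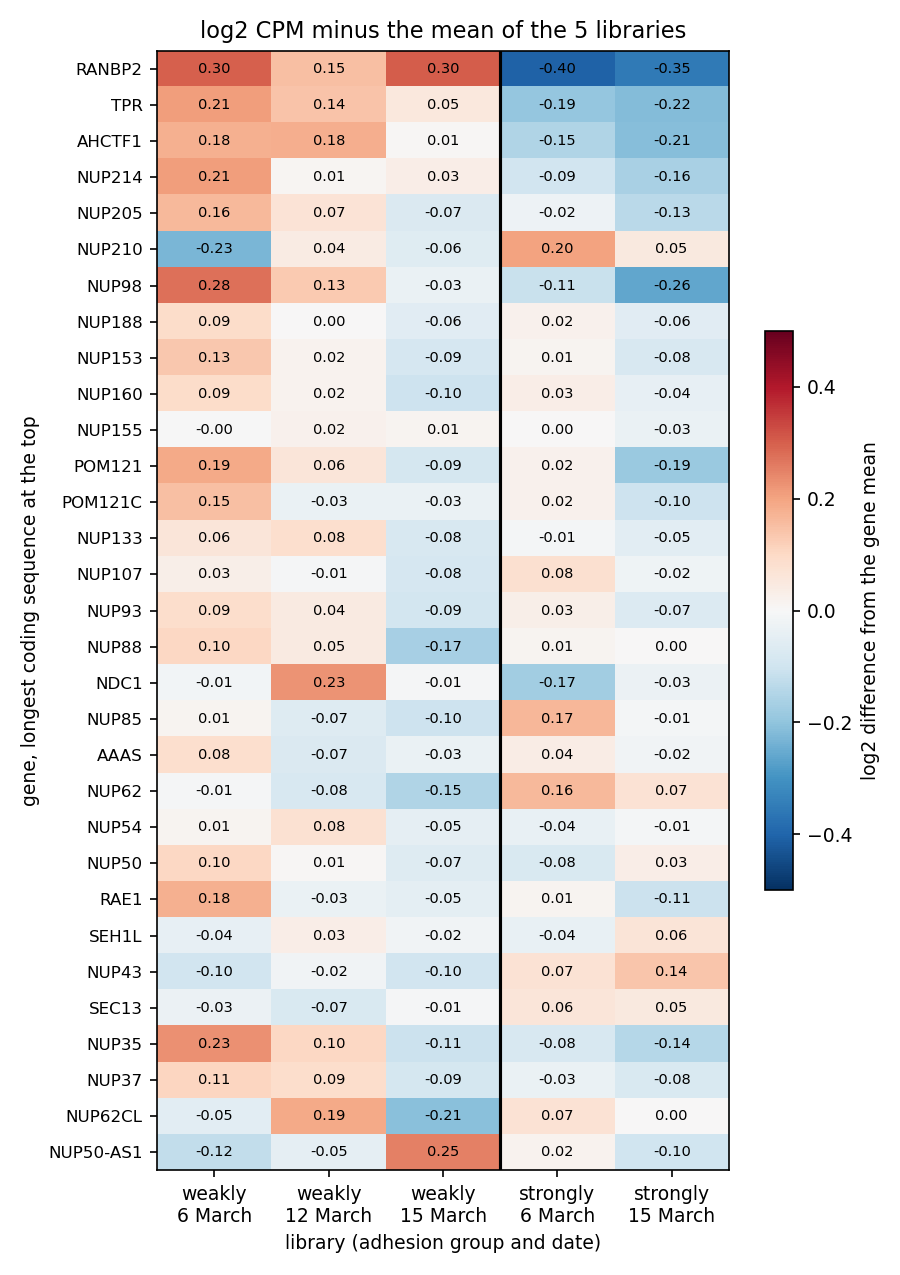
Each cell gives a member's log2 CPM in 1 library minus its mean over the 5 libraries, with the 3 weakly adherent libraries left of the line and the 2 strongly adherent ones right of it, and genes ordered by coding length, NUP50-AS1 with none at the bottom. RANBP2 lies at 0.15 to 0.30 in the weakly adherent libraries and at -0.40 and -0.35 in the strongly adherent ones, while most short genes stay close to their mean.

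The cytoplasmic face held the member with the largest log2FC. RANBP2, which carries Ran-binding domains, had 126, 114 and 126 CPM in weakly adherent cells (6, 12, 15 March). It had 77.3 and 80.0 CPM in strongly adherent cells (6, 15 March). The groups did not overlap. The difference was 1.55-fold (log2FC 0.63, SE 0.08, edgeR BH-adjusted p = 0.000902), and the call held whichever library was left out, with a highest edgeR BH-adjusted p of 0.0111. Removing each library's trend with coding length ended it, at a log2FC of 0.23 (edgeR BH-adjusted p = 0.221). With that trend removed and the date block together, RANBP2 was called higher (log2FC 0.25, edgeR BH-adjusted p = 0.00663). RANBP2 has near-identical copies, the RGPD genes, so reads that match several copies may be lost as not unique. The 7 RGPD genes in the table had at most 7 reads each in a library.

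NUP214, an FG protein of the cytoplasmic side that takes part in mRNA export, had 122, 106 and 108 CPM in the weakly adherent libraries and 98.8 and 94.2 CPM in the strongly adherent ones. The groups did not overlap, but the log2FC of 0.22 (SE 0.08) gave an edgeR BH-adjusted p of 0.225, and 0.00396 with the date block. The remaining genes of this face lay near 0. NUP88, the partner of NUP214, had a log2FC of -0.01 (SE 0.09), the mRNA export factor RAE1 0.08 (SE 0.09), and AAAS, the gene of triple A syndrome, -0.02 (SE 0.09), all with overlapping groups.

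In the nuclear basket, TPR, the coiled-coil protein that forms its filaments, had 250, 239 and 225 CPM in weakly adherent cells (6, 12, 15 March) and 189 and 186 CPM in the strongly adherent ones of 6 and 15 March. The groups did not overlap. TPR rose 1.27-fold (log2FC 0.34, SE 0.07, edgeR BH-adjusted p = 0.0285), a call that also ended with the length trend removed. Leaving out either weakly adherent library of 6 or 12 March ended this call (adjusted p = 0.0547 and 0.114), as did leaving out either strongly adherent one (0.185 for 6 March, 0.184 for 15 March). NUP153, an FG protein that anchors the basket, had a log2FC of 0.06 (SE 0.08), and NUP50, which helps release import cargo, one of 0.04 (SE 0.08). Neither separated the groups.

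In the central channel no gene passed the main test, and NUP98 and NUP62 differed in sign. NUP98, whose transcript encodes both the FG protein NUP98 and the outer ring protein NUP96, had 308, 278 and 248 CPM in the weakly adherent libraries and 235 and 212 CPM in the strongly adherent ones. Every weakly adherent library was higher, and the log2FC was 0.31 (SE 0.09, edgeR BH-adjusted p = 0.121, or 7.26e-05 with the block by date, and 0.0461 when the weakly adherent library of 15 March was left out). NUP62, the FG protein at the centre of the channel, had 147, 140 and 133 CPM in the weakly adherent libraries and 165 and 155 CPM in the strongly adherent ones. Here every weakly adherent library was lower, at a log2FC of -0.20 (SE 0.07, edgeR BH-adjusted p = 0.225, or 0.0332 with the date block). NUP54, which binds NUP62, had overlapping groups and a log2FC of 0.04 (SE 0.08). GENCODE exons of NUP62 overlap those of IL4I1 on the same strand and ATF5 on the other. Those of NUP98 overlap CHRNA10 on the same strand and PGAP2 on the other. Exons of TPR overlap PRG4 on the other strand, those of AHCTF1 overlap KIF28P on the same strand, and those of NUP43 overlap PCMT1 on the other. Further members have overlaps too, so some reads may have been assigned differently or dropped.

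The outer ring, whose Y-shaped units coat both faces of the pore, had a median log2FC of -0.02 over 9 genes, with 4 positive. Its large member was the exception. AHCTF1, also called ELYS, which brings the ring to chromatin when nuclei reform after mitosis, had 114, 114 and 101 CPM in the weakly adherent libraries and 90.5 and 86.8 CPM in the strongly adherent ones. The groups did not overlap, at a log2FC of 0.30 (SE 0.08, edgeR BH-adjusted p = 0.0712, or 0.00133 with the block by date, and 0.0456 when the weakly adherent library of 15 March was left out). The scaffold subunits NUP107, NUP133 and NUP160 gave log2FCs of -0.05, 0.05 and 0.0087, and NUP85 one of -0.13, all with SE 0.08 and overlapping groups. NUP37 was at 0.09 (SE 0.09) and SEH1L at -0.02 (SE 0.07), also with overlapping groups. NUP43, a small subunit, had 58.8, 62.1 and 58.7 CPM in the weakly adherent libraries and 66.1 and 69.1 CPM in the strongly adherent ones. The groups did not overlap, but the log2FC of -0.18 (SE 0.08) gave an edgeR BH-adjusted p of 0.326. SEC13, which also serves in the COPII coat of vesicles leaving the endoplasmic reticulum, was lower in every weakly adherent library, at a log2FC of -0.09 (SE 0.07, edgeR BH-adjusted p = 0.643).

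In the inner ring no member separated the groups, although NUP205 and NUP188 are among the longest pore genes. NUP205 had 369, 345 and 314 CPM in the weakly adherent libraries and 324 and 301 CPM in the strongly adherent ones, a log2FC of 0.13 (SE 0.08). NUP188, its paralog in the ring, had 371, 348 and 335 CPM in the weakly adherent libraries and 353 and 334 CPM in the strongly adherent ones, at 0.03 (SE 0.07). NUP155 (log2FC 0.03, SE 0.07) and NUP93 (0.03, SE 0.08) also lay near 0. NUP35, the smallest of the ring, was at 0.19 (SE 0.11, edgeR BH-adjusted p = 0.483).

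Among the membrane proteins, NUP210 was the large gene with a negative log2FC. NUP210, a transmembrane glycoprotein that is not made in every cell type, had 22.7, 27.3 and 25.5 CPM in the weakly adherent libraries and 30.5 and 27.5 CPM in the strongly adherent ones. Every weakly adherent library was lower, but that of 12 March was only just below the strongly adherent one of 15 March. The log2FC was -0.21 (SE 0.11, edgeR BH-adjusted p = 0.420, or 0.0368 with the date block). NDC1, an anchor needed for pore assembly, had 148, 175 and 149 CPM in the weakly adherent libraries and 133 and 147 CPM in the strongly adherent ones, at a log2FC of 0.17 (SE 0.09, edgeR BH-adjusted p = 0.423). Its groups did not overlap, and the weakly adherent library of 12 March was the highest. POM121 and POM121C, near-identical copies whose shared reads may be lost or split, gave 0.14 (SE 0.10) and 0.07 (SE 0.09). NUP62CL and NUP50-AS1, at means of 3.90 and 5.25 CPM in weakly adherent cells, had log2FCs of -0.06 (SE 0.18) and 0.08 (SE 0.17).

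Over the 8 tested members with a coding sequence of at least 5 kb, the median log2FC was 0.26 and 7 were positive. Over the 10 members of 2 to 5 kb the median was 0.04, and over the 12 under 2 kb it was -0.02. All tested genes of these classes had medians of 0.23, 0.02 and -0.02. Spearman's rho of log2FC with coding length was 0.464 across 30 members, 0.341 without RANBP2 and TPR, and 0.174 across the 22 members under 5 kb. Across all 12232 tested genes with a coding length it was 0.155. Genes of at least 5 kb were 8 of the 30 members and 569 of the 12232 genes, so these rhos cover unlike ranges of length. Genes share libraries and are not independent, so no p is given.

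**Figure D2:**
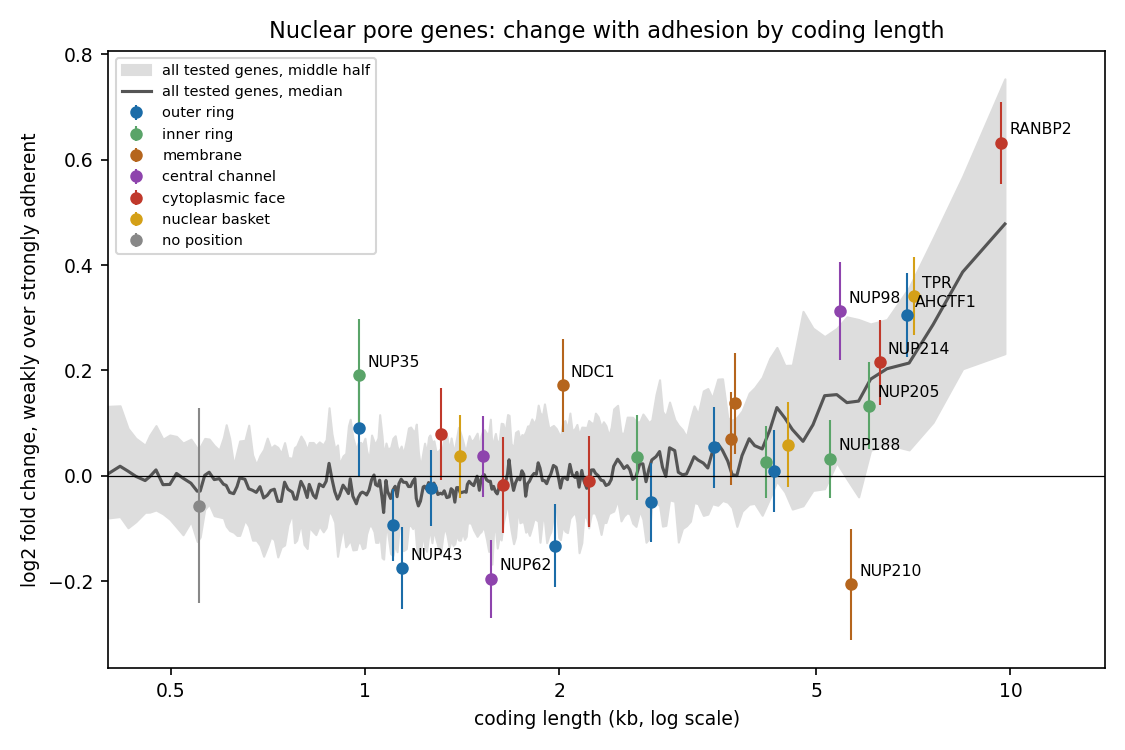
Points give the log2FC (weakly over strongly adherent) of each tested member with a coding sequence, with bars of 1 SE, against coding length on a log axis, coloured by pore position, and the line and band give the median and interquartile range of all tested genes in windows of 100 genes. RANBP2, TPR, AHCTF1, NUP214 and NUP98 lie at 0.22 to 0.63, on or above the rising median. NUP188 at 0.03, NUP205 at 0.13 and NUP210 at -0.21 lie below it.

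Among genes of their own size the members called higher made up a share near the background. RANBP2 and TPR were 2 of 8 tested members of at least 5 kb, and 23.9% of the 569 tested genes of that class were called higher and 0.176% lower in the same fit. With the date block 5 of the 8 rose, against 49.2% of the class, and NUP210 fell, against 1.41% of the class called lower. Among 75 tested genes of 8 to 10 kb, the class of RANBP2 (9672 bases), the median log2FC was 0.41 and 38 were called higher. Among 192 genes of 6 to 8 kb, the class of TPR (7089 bases), AHCTF1, NUP214 and NUP205, it was 0.21 with 35 called higher. Among 224 genes of 5 to 6 kb, the class of NUP98, NUP210 and NUP188, it was 0.15 with 21 called higher and 0 lower.

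With each library's trend with coding length removed, edgeR called 0 members higher and 0 lower, against 0.94% of all tested genes higher and 1.05% lower. The log2FC of RANBP2 given above for this fit had an SE of 0.09, and TPR had a log2FC of 0.08 (edgeR BH-adjusted p = 0.842) and NUP98 one of 0.15 (0.622). With that trend removed and the date block together, RANBP2 was called higher (0.25, edgeR BH-adjusted p = 0.00663) and NUP210 lower (-0.45, 5.72e-05), against 4.46% and 5.24% of all tested genes. With the trend removed but no block, NUP210 was not called (-0.38, edgeR BH-adjusted p = 0.0748). Before any removal its pairs differed, at log2 ratios of -0.43 on 6 March and -0.11 on 15 March. The trend at the length of RANBP2 stood at 0.15, 0.12 and 0.22 (log2) in weakly adherent cells (6, 12, 15 March) and at -0.30 and -0.19 in the strongly adherent ones of 6 and 15 March. The trend moves with the groups, so its part in the values of RANBP2 and adhesion itself cannot be told apart.

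**Figure D3:**
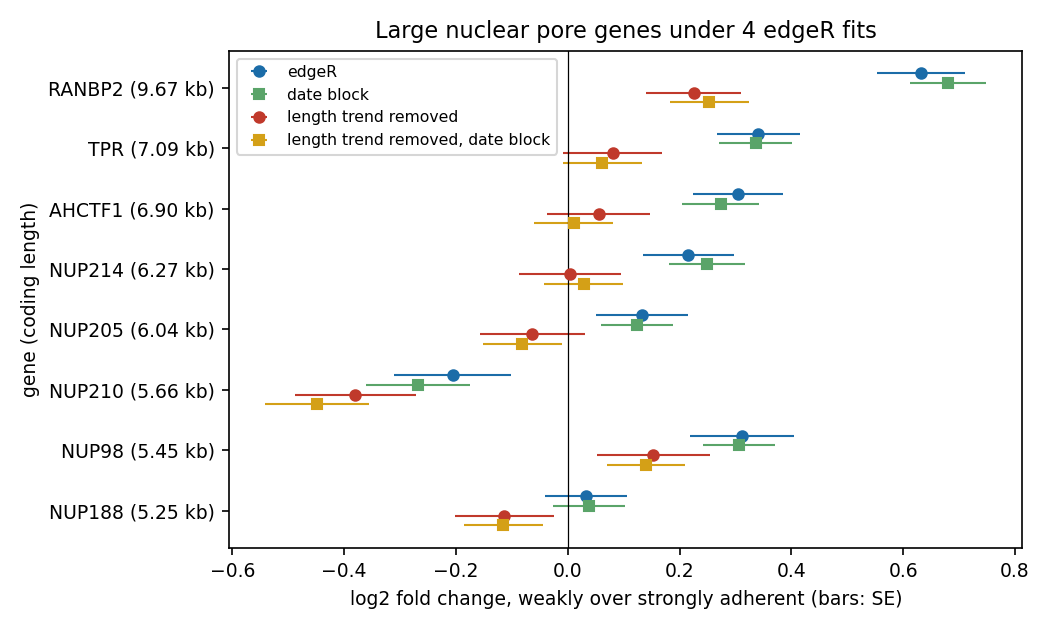
Log2 fold changes (weakly over strongly adherent) of the 8 tested members with at least 5 kb of coding sequence, with bars of 1 SE, from edgeR, from edgeR with the date block, and from both with the trend with coding length removed. RANBP2 moves to 0.23 from 0.63 when the trend is removed, TPR, AHCTF1 and NUP214 move to 0.08 or less, and NUP210 moves to -0.38 from -0.21.

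In the pair of 6 March the log2 ratio of the weakly to the strongly adherent library was 0.70 for RANBP2, 0.40 for TPR, 0.39 for NUP98, 0.33 for AHCTF1 and 0.30 for NUP214. In the pair of 15 March it was 0.66 for RANBP2, 0.27 for TPR, 0.22 for NUP98, 0.22 for AHCTF1 and 0.20 for NUP214, so each was smaller. NUP210 was at -0.43 on 6 March and -0.11 on 15 March, and NUP62 at -0.17 and -0.22. All 8 tested members of at least 5 kb had the same sign in both pairs, beside 477 of all 569 tested genes of that size. Over all 31 tested members 20 had the same sign in both pairs, a share near that of all tested genes (8356 of 13297), and the median was 0.07 on 6 March and -0.01 on 15 March. Among the members that turned sign were NUP88 (0.09 on 6 March, -0.17 on 15 March), NUP50 (0.18 and -0.10) and NUP54 (0.05 and -0.04).

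**Figure D4:**
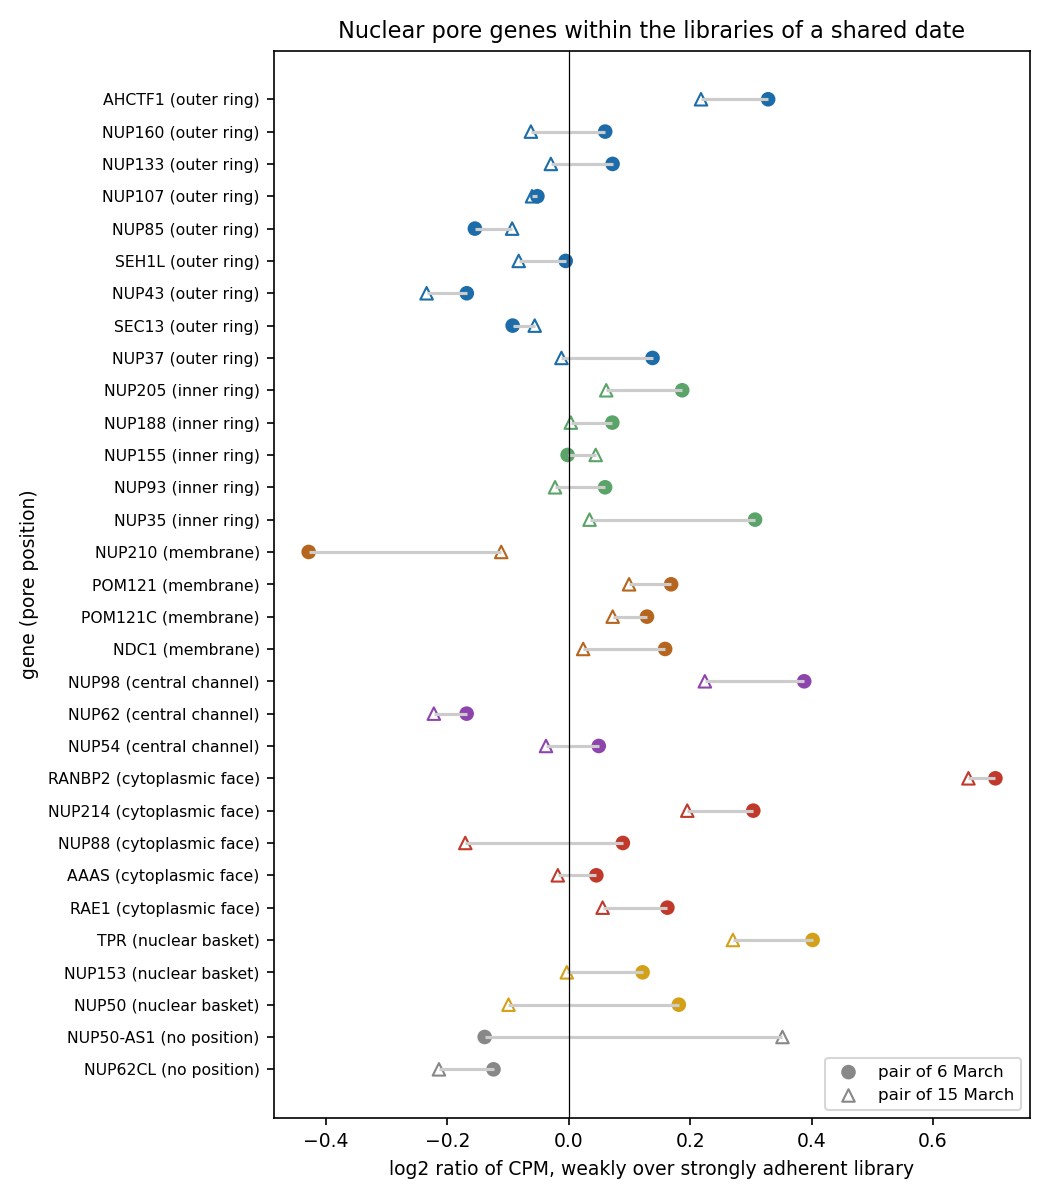
For each tested member the log2 ratio of CPM, weakly over strongly adherent, is shown for the pair of libraries of 6 March (filled circles) and of 15 March (open triangles), grouped by pore position. RANBP2 lies at 0.70 and 0.66, far from the rest, and most genes of the outer and inner rings lie near 0.

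Levels per length differed widely between the members. Mean CPM per kb of the transcript with the longest coding sequence, in weakly and then in strongly adherent cells, was 109 and 116 for SEC13, 67.2 and 68.3 for SEH1L, and 65.4 and 61.9 for RAE1. Among the large genes it was 61.8 and 60.4 for NUP188, 54.7 and 49.9 for NUP205, 39.6 and 31.9 for NUP98, 24.5 and 19.3 for TPR, and 10.4 and 6.71 for RANBP2. NUP210 was lowest among the genes with a pore position, at 3.50 and 4.03 CPM per kb. By this measure the inner ring genes NUP188 and NUP205 had several times the level per length of NUP155 (15.4 and 15.1) from the same ring. The NUP155 transcript used has 8143 bases, of which 4173 are coding. Those of NUP188 and NUP205 have 5689 and 6266 bases, of which 5247 and 6036 are coding. The size of this gap depends on the transcript chosen. The files do not show which transcript was expressed.

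Transport receptors, Ran cycle genes and mRNA export factors were taken as a list beside the pore. Of its 49 tested genes edgeR called 0 higher and 0 lower, against 1.77% and 0.918% of all tested genes, shares at which few calls or none would be seen in a list of this length. Limma-voom also called 0 and 0, against 1.67% and 0.842% of all tested genes. DESeq2 called 1 higher and 0 lower, against 2.27% and 1.05%. At an unadjusted edgeR p under 0.05 there were 3 higher and 1 lower, against 7.86% and 6.35% of all tested genes. The list's median log2FC was 0.01. KPNA2, an importin alpha that carries cargo with a classical import signal, had 695, 640 and 463 CPM in the weakly adherent libraries and 447 and 387 CPM in the strongly adherent ones. The groups did not overlap, at a log2FC of 0.52 (SE 0.17, edgeR BH-adjusted p = 0.203). It was the gene DESeq2 called (adjusted p = 0.00761), and it passed in edgeR without the weakly adherent library of 15 March (0.00400). It rose with the date block in edgeR (BH-adjusted p = 2.25e-10), a fit whose spread is drawn largely from other genes. The KPNA2 libraries lay further apart on 6 March (695 against 447 CPM) than on 15 March (463 against 387 CPM). KPNA6 also rose with the block (log2FC 0.20, edgeR BH-adjusted p = 0.0225). These were the 2 genes of the list called higher with the block, and 0 were called lower. Of all tested genes 6.2% were called higher and 5.28% lower in that fit. The exportin XPO4 had a log2FC of 0.23 (SE 0.08, edgeR BH-adjusted p = 0.197), the THO complex subunit THOC5 -0.19 (SE 0.08, 0.334) and RANBP9 -0.16 (SE 0.08, 0.375).

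Cell cycle genes moved with the groups. Of 54 G2/M genes 14 rose and 0 fell in the main edgeR fit, with a median log2FC of 0.46, and of 42 S phase genes 16 fell and 0 rose, with a median of -0.28, against 1.77% of all tested genes called higher and 0.918% lower. With the date block 42 G2/M genes rose and 35 S phase genes fell, against 6.2% and 5.28%. DESeq2 called 31 G2/M genes higher and 16 S phase genes lower, against 2.27% and 1.05% of all tested genes. Limma-voom called 11 and 15, against 1.67% and 0.842%. Their part in the values of the pore genes was not tested, and in bulk libraries a changed share of cells in a phase and a changed amount of RNA per cell cannot be told apart.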

How the data were processed

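The authors deposited raw counts per gene symbol and log2 values, which equal log2(count / size factor + 1) to within 0.000524 reads as tested on the files. Tools listed in the submitters' processing notes are STAR, HTSeq, DESeq2, cutadapt and FastQC, with hg19 as build. For versions, annotation and strand setting the entry is: not given in the sources used here. The 5 HTSeq rows of reads outside genes were left out; ambiguous reads were 1.34% to 1.43% of uniquely aligned reads and non-unique reads 16.0% to 16.8% of all. The main test on counts was edgeR 4.0.16 under R 4.3.3 (TMM, filterByExpr, robust quasi-likelihood F test, 3 residual degrees of freedom) and adjusted over all 13297 tested genes; SE follows from fold change and F. Log2 fold changes are weakly minus strongly adherent.

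The titles give the dates, which pair the libraries of 6 and 15 March; their deviations from group means correlated at 0.34 and 0.20, against -0.16 (6 March) and 0.16 (15 March) for the unshared date of 12 March. Deviations within a group of 2 mirror each other, so the pairing rests on the titles' dates. The block is an alternative, as are DESeq2 1.42.0, limma 3.58.1, other scalings and filters, the deposited log2 values, each library left out, and removal of each library's trend with coding length (natural spline, 5 degrees of freedom). Coding lengths came by symbol from GENCODE 29 (92.0% of tested genes). The tests were tried on simulated counts drawn without a date effect, which cannot show how the block does with one, and no result here rests on them. All members may be named; of the transport genes, those called and the 2 with the smallest p in each direction, and KPNA6 was added after its value was seen. Members and lists were chosen with earlier results of these data known.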

Additional observations from a re-analysis of the deposited data

How the results depend on the processing

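Members called higher numbered 2, against 1.77% of all tested genes, and 5 with the replicate block by date, against 6.2%. They numbered 0 with the coding length trend removed, against 0.94%, and 1 with that trend removed and the replicate block, against 4.46%. With no filter on low counts they numbered 4, and with 1 weakly adherent library left out 1 to 4. The share of all genes called was not counted for settings with no filter or a library left out. Members called lower numbered 0, against 0.918% of all tested genes. They numbered 2 with the replicate block, against 5.28%, and 1 with the trend removed and the replicate block, against 5.24%. Transport genes called higher numbered 0, against 1.77% of all tested genes, and 1 with DESeq2, against 2.27%. They numbered 2 with the replicate block, against 6.2%, and 2 with the trend removed and the replicate block, against 4.46%. With 1 weakly adherent library left out they numbered 0 to 1. Spearman's rho with coding length was 0.464, -0.016 with the trend removed, which the alternative is built to remove, 0.026 with the replicate block as well, and 0.360 to 0.559 with 1 library left out. The members' median log2 fold change was 0.038, 0.0055 with the trend removed, 0.011 with the replicate block as well, and 0.0035 to 0.083 with 1 library left out. The share of counts was 0.402% in weakly and 0.380% in strongly adherent cells with the 10 most abundant genes out of the total, and 0.354% and 0.338% without RANBP2, POM121 and POM121C.

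Of 35 genes with a value, 14 turned sign under some alternative, none of them called in the main test. With the replicate block the turned values were AAAS at 0.014 and NUP160 at -0.0010. With the trend removed they were NUP153 at -0.041, NUP155 at -0.053, NUP160 at -0.078, NUP188 at -0.11, NUP205 at -0.063 and SEH1L at 0.0055. With the trend removed and the replicate block they were AAAS at 0.015, NUP133 at -0.018, NUP153 at -0.044, NUP155 at -0.060, NUP160 at -0.091, NUP188 at -0.11 and NUP205 at -0.081. With 1 library left out the ranges were -0.064 to 0.014 for AAAS, -0.097 to 0.0018 for NUP107, -0.037 to 0.067 for NUP160, -0.0074 to 0.072 for NUP188, -0.018 to 0.099 for NUP50, -0.037 to 0.16 for NUP50-AS1, -0.17 to 0.039 for NUP62CL, -0.065 to 0.072 for NUP88, -0.0090 to 0.092 for NUP93 and -0.075 to 0.033 for SEH1L. The cause of these turns was not tested. The block leaves 1 residual degree of freedom, and with 2 strongly adherent libraries each carries much of the estimate.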
